A study of Homo sapiens with 12 samples.

Results

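Irradiated MCF10A cells that lacked either of the 2 chains of the interleukin-1 (IL-1) receptor were compared with each other, by RNA-seq, to ask where loss of IL1R1 and loss of IL1RAP left different transcriptomes. The comparison rests on 4 of the 12 libraries of the series, chosen by genotype and treatment alone: replicates 1 and 2 labelled IL1R1-KO RT and replicates 1 and 2 labelled IL1RAP-KO RT. MCF10A is a cell line from human breast epithelium that is immortal but does not form tumors. Both KO lines received 20 Gy of radiation (RT) in 1 dose, grew in the same medium, and had been made in the same parental cells with lentiviral CRISPR/Cas9 guide RNAs and puromycin selection. They were kept as pools of cells rather than clones, so a library may hold cells with different insertions or deletions and cells whose gene was not cut. The other groups used below were irradiated wild-type cells (WT RT), untreated wild-type cells (WT) and the 2 KO lines without RT, each with 2 libraries. Which guide each library carried, and how long after RT the RNA was taken, are not given in the sources used here. The libraries of a group are described as biological repeats. P-values measure only the spread between such libraries, pooled over all 6 groups of the 12 libraries rather than over the 4 compared.

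IL-1α and IL-1β are cytokines that bind IL1R1, which then recruits the accessory chain IL1RAP. The intracellular domains of the pair gather MYD88, IRAK kinases and TRAF6, which activate the IKK complex, and IKK releases NF-κB to drive chemokine, acute phase and antimicrobial genes in epithelia. IL1RAP is also the partner chain of the receptors for IL-33 and IL-36, whereas IL1R1 serves IL-1 itself. Radiation is also known to induce interferon-stimulated genes, whose products act against viruses and load peptides onto MHC class I, and p53 targets, which halt the cell cycle or start apoptosis.

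The irradiated KO lines differed in few genes. Of 15303 genes tested, 11 (0.0719%) passed both thresholds (an adjusted p below 0.05 and a fold over 2) and were called, 2 of them (0.0131%) higher and 9 (0.0588%) lower in the line labelled IL1R1-KO RT. Those lower included CXCL1, a chemokine that attracts neutrophils, and SOD2, the superoxide dismutase of mitochondria, which are both NF-κB targets. Most of the other called genes were transcripts inside or overlapping larger genes. Values are TPM rescaled by trimmed mean factors (scaled TPM), fold changes are differences of log2(scaled TPM + 1), a scale that understates the change of low genes, and adjusted p-values were computed by limma with the Benjamini-Hochberg method. An adjusted p under 0.05 was reached by 15 genes, the other 4 being short of the fold threshold. With the 4 compared libraries fitted alone, 0 genes were called higher and 0 lower. For 12803 genes (83.7%) the 95% interval of the difference lay within 1 log2 unit of 0, and the SD of the differences over all genes was 0.34. Against WT RT, with the same 2 WT RT libraries in both comparisons, 475 genes (3.1%) were called for the line labelled IL1R1-KO RT and 442 (2.89%) for IL1RAP-KO RT.

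**Figure D1:**
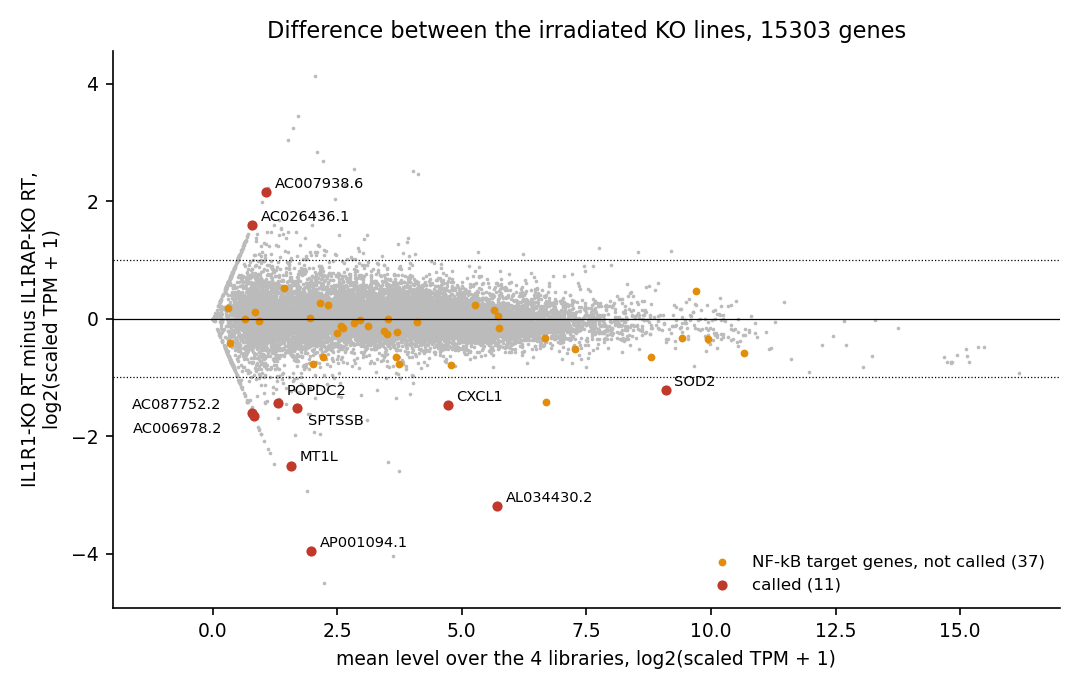
Each point is 1 of the 15303 genes, with the mean level over the 4 libraries on the x axis and the difference between cells labelled IL1R1-KO RT and IL1RAP-KO RT cells on the y axis, both as log2(scaled TPM + 1), and dotted lines at a difference of 1. The 11 called genes are named, and CXCL1 and SOD2 are the called genes among the NF-κB targets, whose other members are orange.

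The IL1RAP-KO RT libraries were less alike than the others, which bears on every value below. Transcripts of mitochondrial DNA took 45.1% of the TPM in IL1RAP-KO RT replicate 1 and 57% in replicate 2, against 40.6% and 41.2% in cells labelled IL1R1-KO RT, 36.9% to 38.3% in WT RT and 18.3% to 21.1% without RT. The SD of the log2 difference over genes was 0.485 between the IL1RAP-KO RT replicates and 0.36 between those labelled IL1R1-KO RT. Between the lines it was 0.397 to 0.408 with IL1RAP-KO RT replicate 1 and 0.508 to 0.509 with replicate 2, so replicate 1 was nearer to the other KO line than to its own replicate. The difference between these replicates also varied with base composition: replicate 2 minus replicate 1 had a median of 0.19 in genes of 26.8% to 41.1% GC and -0.27 in genes of 54.8% to 74.2% GC, among the 11091 genes whose mean reached 2 on the log2 scale. Without IL1RAP-KO RT replicate 1 the counts were 213 higher and 100 lower, and without replicate 2 they were 3 higher and 4 lower. TPM as deposited, without rescaling, put the median difference of all genes at 0.30 instead of 0, so medians of gene lists on that scale are also given relative to that shift.

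The targeted genes were examined first. IL1RAP mRNA (ENSG00000196083, GRCh38 chr3:190514051-190659750) stood at 11.78 and 14.34 scaled TPM in the libraries labelled IL1R1-KO RT, at 3.04 and 5.77 in IL1RAP-KO RT, and at 8.31 and 8.81 in WT RT. The KO lines did not overlap, and IL1RAP was lowest in the line in which it had been targeted. The log2 difference was 1.42 (standard error 0.21, 95% interval 0.95 to 1.90), with an adjusted p of 0.06, so IL1RAP was not called after RT. Without RT the levels were 17.8 and 19.36 against 4.41 and 4.97, a called difference of 1.78 (standard error 0.21, adjusted p = 0.036 from limma). The gene was no longer called with 3 of the 4 untreated KO libraries, whichever was dropped, at 1.84 without IL1R1-KO replicate 1 (adjusted p = 0.24), 1.72 without IL1R1-KO replicate 2 (adjusted p = 0.053), 1.71 without IL1RAP-KO replicate 1 (adjusted p = 0.32) and 1.85 without IL1RAP-KO replicate 2 (adjusted p = 0.15). After RT the adjusted p ran from 0.0058 to 0.68 over 15 alternatives and was 0.0058 without IL1RAP-KO RT replicate 1, 0.0085 without IL1RAP-KO RT replicate 2, 0.22 without IL1R1-KO RT replicate 1 and 0.35 without IL1R1-KO RT replicate 2. It was 0.0074 with TPM as deposited, 0.049 with scaling to nuclear protein-coding genes and 0.041 with a replicate block, but 0.68 with the 4 libraries fitted alone, 0.49 with the irradiated libraries alone and 0.21 with library weights. IL1R1 mRNA (ENSG00000115594, chr2:102064544-102179874) stood at 8.3 and 7.34 in the libraries labelled IL1R1-KO RT, at 14.85 and 14.36 in IL1RAP-KO RT, and at 7.37 and 6.09 in WT RT. It was thus no lower in the line labelled as its knockout than in WT RT (log2 difference 0.19, adjusted p = 0.49 from limma), and IL1RAP-KO RT stood above WT RT by 1.02 (adjusted p = 0.0046 from limma). Between the KO lines the difference was -0.83 (standard error 0.16, 95% interval -1.18 to -0.47, adjusted p = 0.12 from limma). An insertion or deletion made by the guide would not be visible in TPM, so the mRNA level leaves the IL1R1 label unchecked, and that line is called by its label throughout. The paper did check IL1R1-KO cells by function: they resisted the degradation of the NF-κB inhibitor IκBα that IL-1α or IL-1β caused in wild-type cells. Which of those cells gave the RNA libraries is not given.

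CXCL1 and SOD2 were low in both KO lines and lower in cells labelled IL1R1-KO RT. CXCL1 (ENSG00000163739, chr4:73869393-73871308) is shown with its promoter, because it was the chemokine called between the lines and holds the κB motif searched for. The sequence is RefSeq's, from GRCh38.p14 at chr4:73869143-73869442 on the plus strand, from 250 bases before to 50 after the start site, and capitals mark matches on either strand to a κB form, GGG and TTCC with any 3 bases between them. A match on each strand, the pair overlapping, began 79 bases before the start site.
CXCL1: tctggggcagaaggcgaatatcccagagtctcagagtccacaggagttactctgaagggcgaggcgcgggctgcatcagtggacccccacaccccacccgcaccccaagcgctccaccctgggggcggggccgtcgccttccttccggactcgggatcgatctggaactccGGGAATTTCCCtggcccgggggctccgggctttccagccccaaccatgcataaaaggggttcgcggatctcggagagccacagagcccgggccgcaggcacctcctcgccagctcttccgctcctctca
Among NF-κB target genes with a promoter in the table, 11 of 28 (39.3%) held this form, beside 817 of 10678 genes tested (7.65%) and 1766 of all 27305 promoters (6.47%). The promoters of SOD2 and of CXCL8 did not hold it in the same window. Only this form was searched for, so κB sites of other sequence are not covered.

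CXCL1 mRNA was 15.88 and 13.95 scaled TPM in the line labelled IL1R1-KO RT and 50.75 and 36.38 in IL1RAP-KO RT, against 1058.09 and 989.4 in WT RT. Every IL1RAP-KO RT value was above every value of the other KO line, and all 4 were far below WT RT. The means were 14.9 ± 1.36 and 43.6 ± 10.2 (SD, n = 2), or 1.46% and 4.26% of the WT RT mean, and the log2 difference was -1.47 (standard error 0.15, 95% interval -1.79 to -1.14, adjusted p = 0.0068 from limma). Over the alternatives it ran from -1.71 to -1.12, and it was not called with TPM as deposited (adjusted p = 0.066), without IL1R1-KO RT replicate 2 (adjusted p = 0.086), with the 4 libraries fitted alone (adjusted p = 0.51) or with the irradiated libraries fitted alone (adjusted p = 0.22). SOD2 (ENSG00000112096, placed by its symbol at chr6:159669069-159762529) was 396.31 and 323.13 in cells labelled IL1R1-KO RT, compared with 858.36 and 816.79 in IL1RAP-KO RT and 6290.87 and 5583.3 in WT RT. It kept 6.06% of the WT RT mean in the former line and 14.1% in the latter, with no overlap. The log2 difference was -1.22 (standard error 0.12, 95% interval -1.49 to -0.96, adjusted p = 0.0068 from limma). SOD2 was not called under the same 4 alternatives (adjusted p = 0.066, 0.06, 0.43 and 0.22 in that order) or with library weights (adjusted p = 0.064). CXCL8, another neutrophil chemokine (chr4:73740519-73743716), was 9.95 and 8.58 against 16.97 and 15.97, beside 275.78 and 275.99 in WT RT. Its difference of -0.77 (standard error 0.11, 95% interval -1.02 to -0.52) reached an adjusted p of 0.049 but not the fold threshold, and its adjusted p ran from 0.011 to 0.68 over the alternatives.

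**Figure D2:**
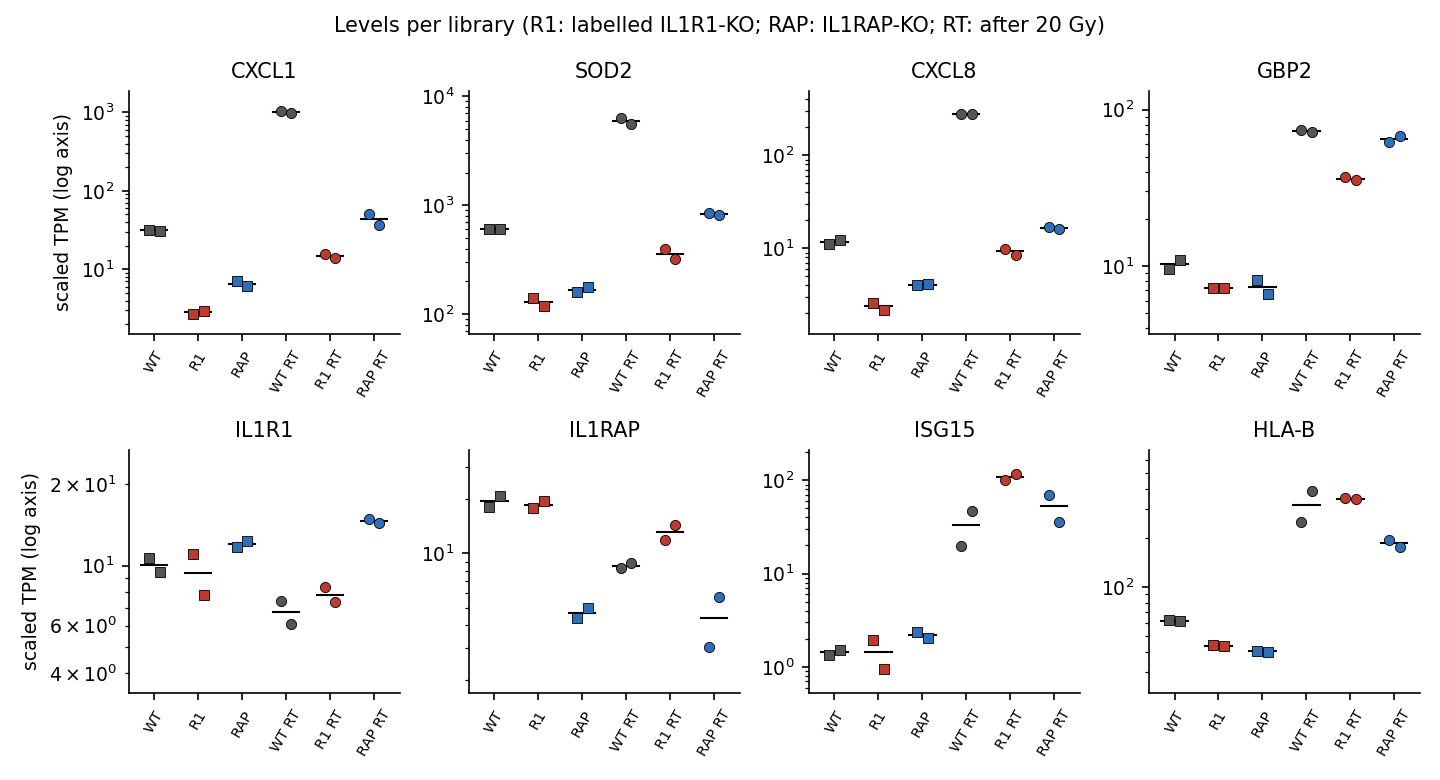
Scaled TPM of 8 genes in each of the 12 libraries, with untreated groups as squares, irradiated groups as circles and a bar at the mean of 2 libraries. CXCL1, SOD2 and CXCL8 were highest in WT RT, while GBP2, IL1R1, IL1RAP, ISG15 and HLA-B were each separated between the irradiated KO lines without overlap.

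As a group, the NF-κB targets were low in both lines by similar amounts. Of the 45 listed, 39 were tested, 32 were called lower than WT RT in the line labelled IL1R1-KO and 31 in IL1RAP-KO RT, beside 1.95% and 2.08% of all genes called lower. Over the 37 with at least 1 scaled TPM in WT RT, the median level was 12.4% of WT RT in the former and 15.8% in the latter. Between the KO lines 2 of the 39 were called lower and none higher, beside 0.0588% and 0.0131% of all genes. At an unadjusted p under 0.05 from limma 12 were lower and 3 higher, beside 7.24% and 8.02% of all genes, and 18 were lower and 4 higher without overlap, beside 20.5% and 20.2%. The median difference was -0.16, beside 0 for all genes, and ran from -1.47 to 0.52 over the members. It was 0.12 with TPM as deposited, which is 0.18 below the median of all genes on that scale. It was -0.08 without IL1RAP-KO RT replicate 1 and -0.34 without replicate 2.

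Members that were not called are given by their values. C3, the central complement protein, was 346.86 and 361.9 in cells labelled IL1R1-KO RT against 491.88 and 633.83, and 1655.81 and 1790.59 in WT RT (log2 difference -0.65, standard error 0.14, adjusted p = 0.14 from limma). CSF3, the granulocyte growth factor, was 2.66 and 2.72 against 4.87 and 4.78 (-0.66, standard error 0.13, adjusted p = 0.12). NFKBIA, the inhibitor that retains NF-κB in the cytoplasm, was 93.74 and 87.16 against 114.33 and 112.72 (-0.33, standard error 0.08, adjusted p = 0.16). In these 3 genes both libraries of the line labelled IL1R1-KO RT lay below both IL1RAP-KO RT libraries. The chemokines CXCL2 and CCL20 did not separate in this way. CXCL2 was 4.48 and 4.97 against 7.37 and 3.69, around a difference of -0.13, and CCL20 was 4.76 and 3.11 against 2.41 and 3.79, around 0.27. CXCL16, a membrane-bound chemokine, was 31.06 and 35.19 against 31.08 and 34.68, and 30.89 and 31.78 in WT RT. C3, CSF3, CXCL2 and CCL20 were chosen after their values were seen.

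**Figure D3:**
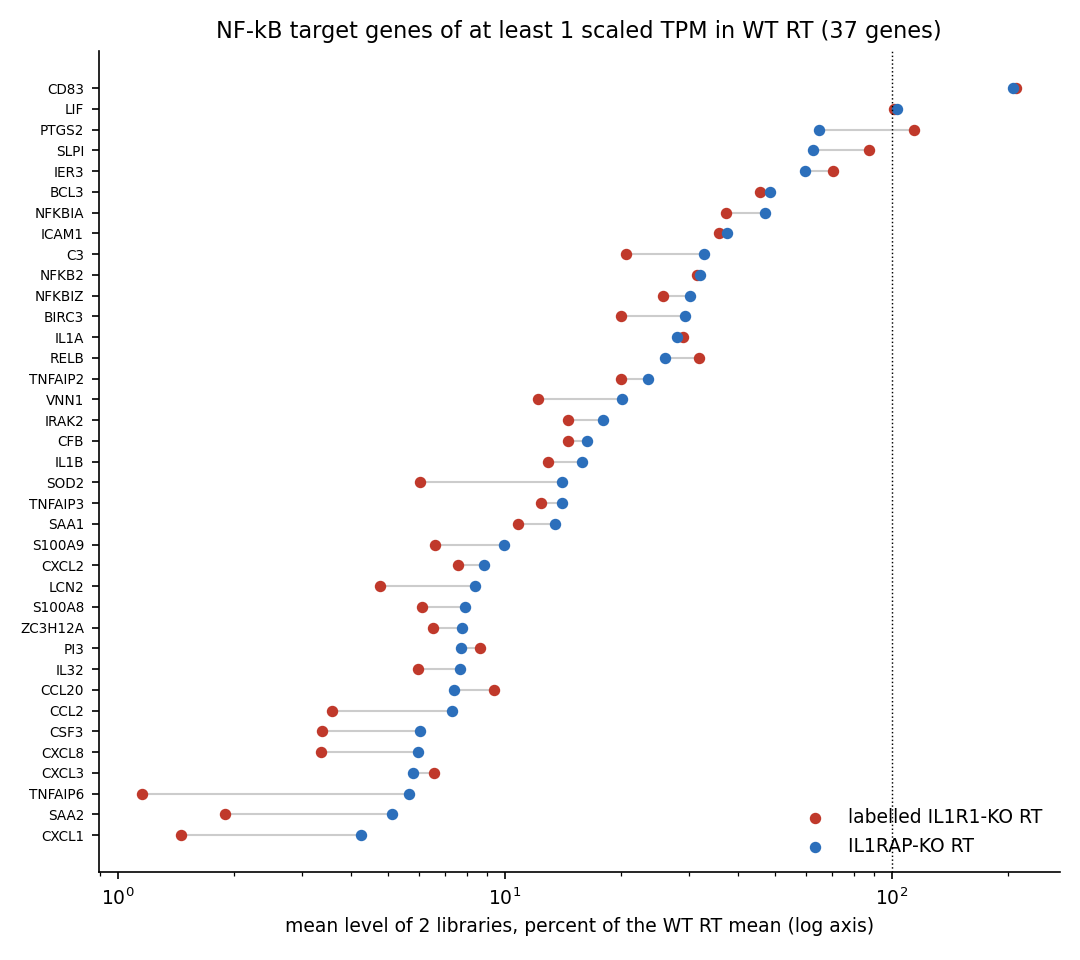
Each of 37 NF-κB target genes with at least 1 scaled TPM in WT RT is a pair of points at its mean level in each irradiated KO line, as a percentage of the WT RT mean on a log axis. The points of most genes lie near each other and well below 100%, with CXCL1 and SOD2 the called pairs.

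Chemokines, acute phase and antimicrobial genes were likewise low in both lines. Of 14 chemokines and myeloid growth factors tested (20 listed), 8 were called lower than WT RT in each line, beside 1.95% and 2.08% of all genes, and 1, CXCL1, was called lower between them, beside 0.0588%. The median difference between the lines was -0.02, -0.11 to -0.05 with any 1 of the 4 libraries left out, and with TPM as deposited 0.26, or 0.04 below all genes. Of 21 acute phase and complement genes (25 listed), 12 were called lower than WT RT in each line, beside the same shares of all genes (1.95% and 2.08%), at a median of 18.9% and 28.6% of the WT RT level. None was called between the lines. At an unadjusted p below 0.05 in limma 8 were lower and 0 higher, beside 7.24% and 8.02% of all genes. The median difference was -0.19 (0.10 with TPM as deposited, or 0.20 below all genes). SAA2, a serum amyloid A protein that shares near-identical sequence with SAA1, was 56.71 and 68.29 in cells labelled IL1R1-KO RT, compared with 189.55 and 149.16 in IL1RAP-KO RT and 3486.17 and 3126.48 in WT RT. Its difference of -1.42 (standard error 0.31, 95% interval -2.11 to -0.73) was close to that of CXCL1 but had an adjusted p of 0.14 from limma. SAA1 itself was 552.16 and 677.61 against 787.78 and 743.14 (-0.32), and reads of the pair may have been split between them.

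Of 15 antimicrobial genes (23 listed), 10 were called lower than WT RT in the line labelled IL1R1-KO RT, 12 were in IL1RAP-KO RT, beside 1.95% and 2.08% of all genes, and none between the lines. The median difference was -0.34 (0.01 with TPM as deposited, or 0.29 below all genes). It was -0.17 without IL1R1-KO RT replicate 2 and turned to 0.24 without IL1RAP-KO RT replicate 1. LTF, the iron-binding protein lactoferrin, was 2.6 and 2.96 against 11.79 and 6.07, down from 1034.17 and 663.26 in WT RT. Both lines thus kept little of it, 0.327% and 1.05%, and the difference of -1.33 (standard error 0.30) had an adjusted p of 0.14 from limma. S100A9, a subunit of calprotectin, was 1308.07 and 1357.38 against 2256.79 and 1765.82 (-0.58, adjusted p = 0.17), and its partner S100A8 833.44 and 909.68 against 1335.19 and 921.36 (-0.35, adjusted p = 0.39). SLPI, a secreted protease inhibitor, lay on the other side, at 946.4 and 1027.46 against 709.52 and 702.9 (0.48, adjusted p = 0.18). SAA2, LTF and SLPI were chosen after their values were seen.

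Genes upstream of NF-κB were not called between the irradiated lines. List medians were -0.05 for signal relay genes and -0.08 for IKK, NF-κB and IκB genes, but 0.35 for receptor genes. IL1A, the IL-1α gene, was 47.88 and 57.89 scaled TPM against 49.98 and 52.23 (log2 difference 0.04, 95% interval -0.18 to 0.27), and IL1B was 8.35 and 10.23 against 12.71 and 10.03 (-0.26, 95% interval -0.61 to 0.08). Both ligands overlapped between the lines and were at 12.9% to 28.9% of WT RT. Of 4 ligand and antagonist genes tested (11 listed), 6 receptor genes (9 listed) and 11 relay genes (12 listed), none was called between the irradiated lines. At an unadjusted p below 0.05 in limma 1 ligand gene was higher and 1 lower, 2 receptor genes were higher and 1 lower, and 2 relay genes were higher and 0 lower. Of all genes 8.02% were higher and 7.24% lower. The receptor list holds the targeted genes themselves. The kinase IRAK1 was 48.06 and 45.78 against 42.94 and 31.37 (0.35, adjusted p = 0.28), and TAB2, which ties TRAF6 to the kinase TAK1, 69.29 and 66.43 against 66.02 and 79.8 (-0.10). Of 22 IKK, NF-κB and IκB genes, 10 and 8 were called lower than WT RT, beside 1.95% and 2.08% of all genes, and none between the lines. The ubiquitin ligase subunit RBCK1 was 80.9 and 82.38 against 60.72 and 49.14 (0.57, standard error 0.11, adjusted p = 0.12 from limma). NFKB1, whose product p50 binds DNA with RELA, was 19.14 and 19.66 against 25.78 and 22.13 (-0.29, adjusted p = 0.23), and RELA was 29.14 and 30.38 against 34.56 and 28.95 (-0.09). IL1B, NFKB1 and RELA were chosen after their values were seen.

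The remaining called genes were a metallothionein pseudogene, 2 protein-coding genes of low level and 6 transcripts inside or overlapping other genes. MT1L, a pseudogene of the metallothioneins that bind zinc and copper (chr16:56617563-56618680), was listed at 0 and 0.58 scaled TPM in cells labelled IL1R1-KO RT and at 4.72 and 7.85 in IL1RAP-KO RT, against 38.81 and 27.55 in WT RT. The log2 difference was -2.50 (standard error 0.28, adjusted p = 0.017 from limma), and it was not called without IL1R1-KO RT replicate 1 (-2.16, adjusted p = 0.12) or without IL1RAP-KO RT replicate 2 (-2.21, adjusted p = 0.10). MT1L was called under 8 of 15 alternatives. Its close relatives share sequence with it, so counting could divide reads among them. The functional genes MT1X and MT2A were not called: MT1X was 127.45 and 142.69 against 206.52 and 279.45 (-0.83, adjusted p = 0.11) and MT2A 926.61 and 1014.58 against 1042.24 and 969.82 (-0.05). Of the 5 functional metallothionein genes tested (10 listed), none was called and 3 were lower at an unadjusted p below 0.05 in limma, beside 7.24% of all genes. Their median was -0.28 (0.08 with TPM as deposited, or 0.22 below all genes). It was -0.15 without IL1RAP-KO RT replicate 1 and -0.40 without replicate 2. SPTSSB, a small subunit of the enzyme that starts sphingolipid synthesis (chr3:161344798-161372880), was 1.32 and 0.59 against 4.79 and 4.27, and 3.16 and 3.4 in WT RT (-1.52, standard error 0.22, adjusted p = 0.049). POPDC2, a membrane protein that binds cyclic AMP (chr3:119636457-119665324), was 0.63 and 0.39 against 2.9 and 3.25, and 0.26 and 0.18 in WT RT (-1.44, standard error 0.20, adjusted p = 0.049). It overlaps COX17 on the same strand. SPTSSB and POPDC2 were each called under 4 of 15 alternatives. SPTSSB was not called without IL1R1-KO RT replicate 1 (adjusted p = 0.051), IL1R1-KO RT replicate 2 (0.30) or IL1RAP-KO RT replicate 2 (0.15), and POPDC2 not without the same libraries (0.14, 0.31 and 0.18).

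Of the 6 transcripts within or overlapping other genes, 5 were listed at 0 in both irradiated libraries of 1 KO line, and AL034430.2 was above 0 in all 4. AP001094.1, a noncoding RNA of 193 bases antisense to PTPRM (chr18:8406761-8406953), was listed at 13.72 and 15.24 scaled TPM in IL1RAP-KO RT and at 0 in the other 10 libraries (adjusted p = 2.3e-05 from limma, the smallest of the comparison). It was called under 13 of 15 alternatives. AC007938.6, of 235 bases inside MEST (chr7:130488304-130488538), was listed at 3.72 and 3.24 in cells labelled IL1R1-KO RT and at 0 in both IL1RAP-KO RT libraries (adjusted p = 0.006), and was called under 11 of 15. AC026436.1, a pseudogene of 270 bases inside CKMT2 (chr5:81242330-81242599), was listed at 2.09 and 1.95 against 0 and 0 (adjusted p = 0.028). These 2 were the genes called higher in cells labelled IL1R1-KO RT, and both lie within longer genes. In the other direction, AC006978.2 overlaps ZNRF2 and was listed at 0 and 0 against 1.76 and 2.62 (adjusted p = 0.035), and AC087752.2 lies within NDUFAF6 and was listed at 0 and 0 against 1.9 and 2.17 (adjusted p = 0.028). AL034430.2, of 192 bases within MKKS (chr20:10420546-10420737), was 22.83 and 11.58 against 244.24 and 100.18, with 197.77 and 129.32 against 111.69 and 169.33 before RT (-3.19, standard error 0.46, adjusted p = 0.049). AC026436.1, AC006978.2 and AC087752.2 were not called without any 1 of IL1R1-KO RT replicate 1 (adjusted p = 0.14, 0.15 and 0.13), IL1R1-KO RT replicate 2 (0.15, 0.19 and 0.15) and IL1RAP-KO RT replicate 2 (0.10, 0.14 and 0.14). AL034430.2 was not called without IL1R1-KO RT replicate 1 (-3.65, adjusted p = 0.13) or replicate 2 (-2.72, adjusted p = 0.33). AC026436.1 and AC006978.2 were each called under 5 of 15 alternatives, and AC087752.2 and AL034430.2 each under 4 of 15. Reads may be divided between such transcripts and the genes around them, and the strand setting of the counting is not given in the sources used here.

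The 4 genes that reached the adjusted p but not the fold threshold included GBP2, a GTPase that interferon induces. GBP2 (chr1:89106132-89150456) was 37.05 and 35.32 in cells labelled IL1R1-KO RT, compared with 62.3 and 67.71 in IL1RAP-KO RT and 73.73 and 72.05 in WT RT. Against WT RT the difference was -0.99 in the line labelled IL1R1-KO RT (adjusted p = 0.00047 from limma) and -0.16 in IL1RAP-KO RT (adjusted p = 0.33). The difference between the KO lines was -0.83 (standard error 0.11, 95% interval -1.07 to -0.58, adjusted p = 0.036). SELENOP, the selenium transport protein, was 48.47 and 45.56 against 68.94 and 70.72 (-0.56, standard error 0.08, adjusted p = 0.048), with 32.88 and 35.58 in WT RT. SSNA1, a microtubule-binding protein, was 28.53 and 28.22 against 17.58 and 16.68 (0.70, standard error 0.10, adjusted p = 0.049), and CXCL8 was the last. Over the alternatives the adjusted p ran from 0.0055 to 0.43 for GBP2 and from 0.007 to 0.57 for SSNA1. SELENOP was chosen after its values were seen.

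Interferon-response genes lay higher in cells labelled IL1R1-KO RT than in IL1RAP-KO RT as a list, with none called. Of 48 tested (50 listed), 43 had a difference above 0 and 5 below, beside 48.9% and 50.5% of all genes. Without overlap 33 were higher and 1 lower, beside 20.2% and 20.5%, and at an unadjusted p below 0.05 in limma 11 were higher and 1 lower, beside 8.02% and 7.24%. The median was 0.34 (0.68 with TPM as deposited, or 0.38 above all genes) and the members ran from -0.28 to 1.21. By median the list stood at 150% and 120% of the WT RT level in the 2 lines, with 12 and 3 genes called higher, beside 1.16% and 0.804% of all genes. Its summed scaled TPM was 3330 and 4730 in WT RT and 5050 and 5700 in cells labelled IL1R1-KO RT. In IL1RAP-KO RT it was 4390 and 3540, within the range of the WT RT libraries. Without RT the median between the lines was -0.06.

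The promoters of ISG15, the ubiquitin-like protein that interferon induces, and of IFI6, an antiviral membrane protein, are shown because these genes stood among the wider differences of the list. Capitals mark the core of the interferon-stimulated response element, searched on both strands as GAAA, any 2 bases and GAAA. They are RefSeq's for GRCh38.p14, ISG15 at chr1:1013247-1013546 on the plus strand and IFI6 at chr1:27672143-27672442 on the minus strand.
ISG15: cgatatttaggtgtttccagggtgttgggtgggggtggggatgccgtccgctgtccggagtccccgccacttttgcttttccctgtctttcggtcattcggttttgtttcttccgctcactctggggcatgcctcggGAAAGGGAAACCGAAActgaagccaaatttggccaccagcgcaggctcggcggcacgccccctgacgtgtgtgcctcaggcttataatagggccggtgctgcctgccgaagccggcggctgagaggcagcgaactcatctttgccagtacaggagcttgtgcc
IFI6: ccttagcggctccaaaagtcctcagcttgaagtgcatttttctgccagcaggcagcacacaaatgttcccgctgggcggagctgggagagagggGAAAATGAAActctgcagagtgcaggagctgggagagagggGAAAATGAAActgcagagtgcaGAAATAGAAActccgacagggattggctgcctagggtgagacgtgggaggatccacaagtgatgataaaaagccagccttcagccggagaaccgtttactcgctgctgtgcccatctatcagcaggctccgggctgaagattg
ISG15 held 2 matches, which overlap and begin 113 bases before the start site, and IFI6 held 3, the farthest 156 bases before it. The core was found in 26 of 39 promoters of the list (66.7%) and in 9 of 17 of the MHC class I list (52.9%), beside 306 of 10678 genes tested (2.87%) and 996 of all 27305 promoters (3.65%).

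IFI6 mRNA was 823.56 and 920.34 scaled TPM in cells labelled IL1R1-KO RT, compared with 433.32 and 350.36 in IL1RAP-KO RT and 148.23 and 599.04 in WT RT. ISG15 was 100.47 and 117.96 against 69.14 and 36.04, and 19.95 and 46.82 in WT RT. Neither gene overlapped between the KO lines, but the WT RT replicates differed from each other by more than the KO lines did. The log2 differences were 1.16 for IFI6 (standard error 0.49, 95% interval 0.06 to 2.26, adjusted p = 0.31 from limma) and 1.11 for ISG15 (standard error 0.38, 95% interval 0.25 to 1.97, adjusted p = 0.24). IRF7, the factor that amplifies interferon production, was 11.72 and 10.28 against 7.23 and 2.68 (1.12, adjusted p = 0.20), and OASL, of the oligoadenylate synthetase family, 4.45 and 5.98 against 2.71 and 2.01 (0.89, adjusted p = 0.14). IFITM3, a membrane protein that blocks viral entry and the member of highest mean level in the 4 libraries, was 1381.42 and 1563.16 against 1415 and 1105.77 (0.23), with overlap. The 20 interferon receptors, ligands and transcription factors tested (27 listed) had a median of 0 with none called, and the 14 guanylate-binding and interferon-γ genes (20 listed) a median of 0.06 with none called. ISG15, IRF7 and OASL were chosen after their values were seen.

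MHC class I genes had the same direction between the KO lines but, unlike the interferon-response list, lay below WT RT by median in both. Their median levels were 84% (IL1R1-KO label) and 74.4% (IL1RAP-KO) of WT RT. Of 21 antigen presentation genes tested (22 listed), none was called between the KO lines. At an unadjusted p below 0.05 in limma 10 were higher and 1 lower, beside 8.02% and 7.24% of all genes. The median was 0.28 (0.64 with TPM as deposited, or 0.34 above all genes). HLA-B, a class I heavy chain, was 353.51 and 344.42 in cells labelled IL1R1-KO RT, compared with 194.53 and 175.13 in IL1RAP-KO RT and 248.97 and 386.26 in WT RT. HLA-C, another, was 232.56 and 247.74 against 140.29 and 117.09. Both heavy chains were separated between the lines, by 0.92 for HLA-B (standard error 0.16, 95% interval 0.56 to 1.27, adjusted p = 0.10 from limma) and by 0.90 for HLA-C (adjusted p = 0.11). They are near-identical in sequence and vary between genomes, so reads may have been shared among them. NLRC5, the transactivator of class I genes, was 11.1 and 10.89 against 6.65 and 5 (0.82, adjusted p = 0.13). B2M, the light chain, was 3094.33 and 3181.01 against 2488.63 and 2674.75 (0.28, adjusted p = 0.37), and the chaperone CANX 457.57 and 464.7 against 509.17 and 513.3 (-0.15). Against WT RT, HLA-B was lower in IL1RAP-KO RT (-0.75, adjusted p = 0.016 from limma, short of the fold threshold) and differed by 0.17 in the other line. HLA-B, HLA-C and NLRC5 were chosen after their values were seen.

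**Figure D4:**
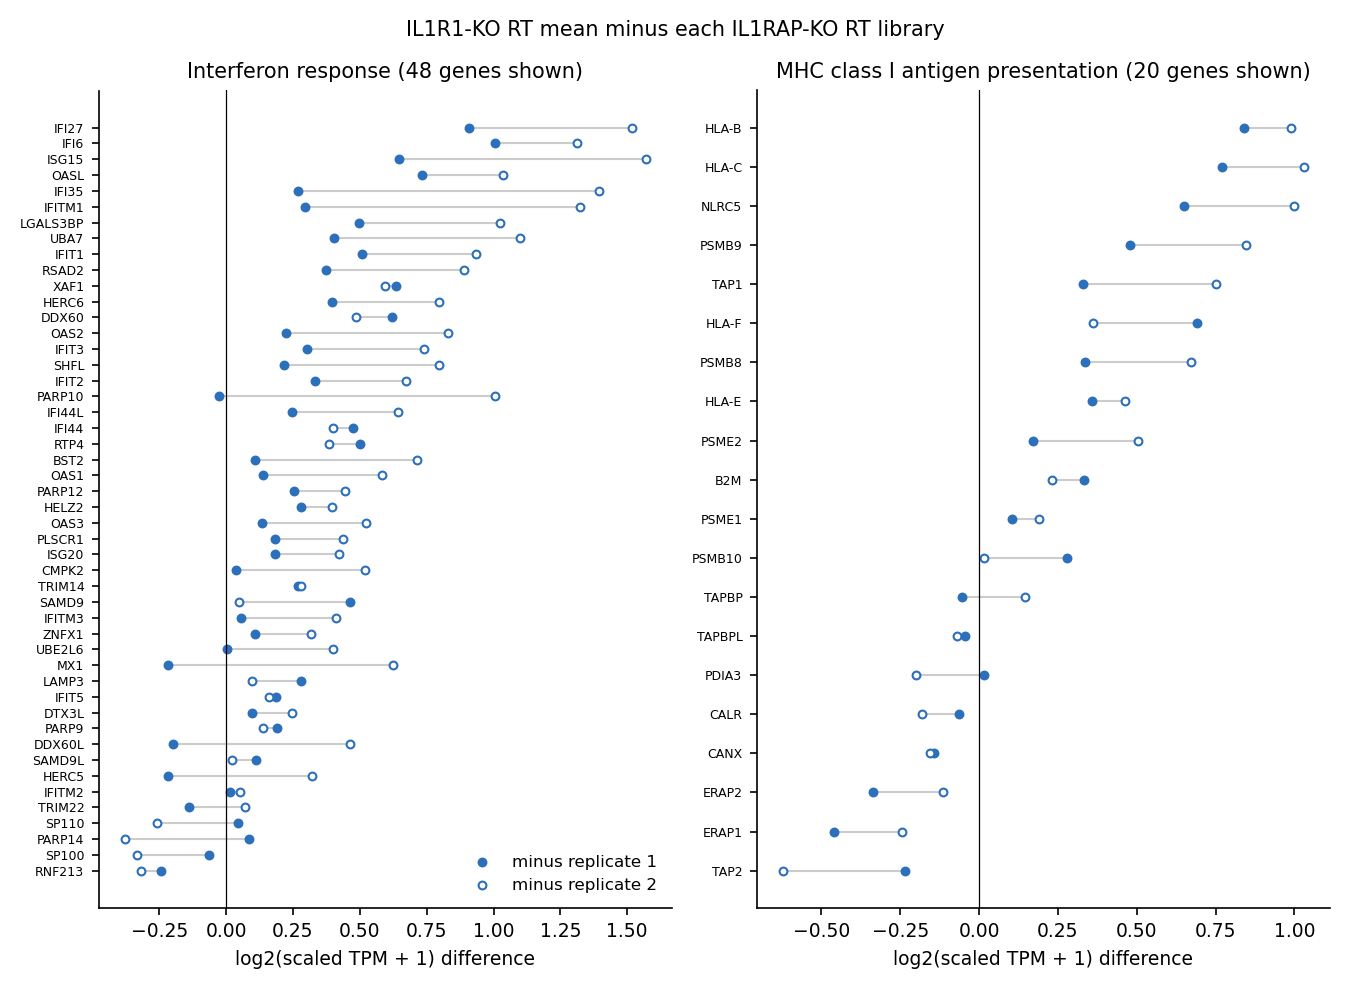
Each row is a gene of the interferon-response (left, 48 genes) or MHC class I list (right, 20 of 21 genes), with its mean in cells labelled IL1R1-KO RT minus its value in IL1RAP-KO RT replicate 1 (filled) and replicate 2 (open) on the x axis, as log2(scaled TPM + 1). Of the interferon-response genes 41 lie above 0 against replicate 1 and 44 against replicate 2, and HLA-B and HLA-C lead the MHC class I genes.

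These lists were set against each IL1RAP-KO RT library in turn. Of the 48 interferon-response genes 41 had a higher mean in cells labelled IL1R1-KO RT than in replicate 1 and 44 than in replicate 2. The medians were 0.22 without replicate 2 and 0.47 without replicate 1. The MHC class I medians were 0.28 and 0.23 in the same order, with 14 of 21 genes higher than in either replicate. The median GC content was 45.6% for the interferon-response list, 53.8% for MHC class I and 47.5% for all genes. The difference of cells labelled IL1R1-KO RT from replicate 2 had medians from -0.21 in genes of 26.8% to 41.1% GC to 0.33 in genes of 54.8% to 74.2% GC, and that from replicate 1 medians of -0.02 and 0.06 in the same genes. The part of GC content in these list values was not tested beyond this.

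The integrated stress response, which ATF4 drives when translation is checked by the kinases of eIF2α, showed a similar shift. Of 28 genes, none was called. At an unadjusted p below 0.05 in limma 10 were higher and 0 lower, beside 8.02% and 7.24% of all genes. Without overlap 17 were higher and 0 lower, beside 20.2% and 20.5% of all genes. The median was 0.25 (0.59 with TPM as deposited, or 0.29 above all genes), with 0.28 without IL1RAP-KO RT replicate 2 and 0.23 without replicate 1. Both lines lay above WT RT, at medians of 178% and 132% of its level, with 9 and 3 genes called higher, beside 1.16% and 0.804% of all genes. SLC7A5, a subunit of an amino acid transporter, was 576.92 and 619.24 in cells labelled IL1R1-KO RT, compared with 438.87 and 354.2 in IL1RAP-KO RT and 201.31 and 285.23 in WT RT (log2 difference 0.60, standard error 0.20, adjusted p = 0.23 from limma). Its partner SLC3A2 was 543.4 and 566.07 against 426.78 and 362.92 (0.49, adjusted p = 0.19). TRIB3, a pseudokinase that ATF4 induces, was 132.59 and 132 against 97.34 and 77.06 (0.61, adjusted p = 0.17), and CHAC1, which degrades glutathione, 15.61 and 13.08 against 8.45 and 4.67 (1.06, adjusted p = 0.14). ATF4 mRNA itself overlapped, at 269.38 and 281.53 against 296.58 and 276.3 (-0.06). TRIB3, CHAC1 and ATF4 were chosen after their values were seen.

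Keratinocyte differentiation genes also lay mostly above 0. Of 28 tested (49 listed), 16 were higher and 1 lower without overlap, beside 20.2% and 20.5% of all genes, and none was called. At an unadjusted p below 0.05 in limma 5 were higher and 1 lower, beside 8.02% and 7.24% of all genes. The median was 0.33 (0.61 with TPM as deposited, or 0.31 above all genes, and 0.21 without IL1R1-KO RT replicate 2), and the median GC content was 55.9%. KRT6A, a keratin of stressed and wounded epithelium, was 753.24 and 848.14 against 653.13 and 654.1, and 373.93 and 381.5 in WT RT (0.29, standard error 0.08, adjusted p = 0.20 from limma). KRT17 was 938.57 and 1183.14 against 916.86 and 868.27 (0.24, adjusted p = 0.64). KLK5, a protease that loosens the cornified layer, was 17.9 and 22.15 against 6.11 and 11.96, and 2.48 and 5.5 in WT RT (1.12, standard error 0.33, adjusted p = 0.20). It was chosen after its values were seen.

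BCL2 family genes lay mostly above 0, while p53 targets lay on both sides of it, with 19 above and 17 below. Of 15 BCL2 family genes (19 listed), 14 had a difference above 0, beside 48.9% of all genes, and none was called. At an unadjusted p below 0.05 in limma 5 of them were higher, beside 8.02% of all genes. The median was 0.34, and it was 0.13 without IL1RAP-KO RT replicate 2 and 0.42 without replicate 1. BCL2L1, which protects mitochondria from BAX, was 89.06 and 93.28 against 79.85 and 53.17 (0.48, adjusted p = 0.24), and MCL1, a protector of short half-life, 248.71 and 250.01 against 260.42 and 256.52 (-0.05, 95% interval -0.22 to 0.12). BCL2L1 thus stood lowest in IL1RAP-KO RT replicate 2, the library with the high mitochondrial share, and MCL1 lay between 248.71 and 260.42 in all 4 libraries. Of 36 p53 targets none was called, and 11 were higher and 1 lower at an unadjusted p below 0.05 in limma, beside 8.02% and 7.24% of all genes. Their median of 0.07 lay between 0 and 0.06 with any 1 of the 4 libraries left out. CDKN1A, the cyclin kinase inhibitor p21, was 389.7 and 387.39 against 313.45 and 212.96, and 216.18 and 223.3 in WT RT (0.59, standard error 0.17, adjusted p = 0.20). MDM2, the ubiquitin ligase of p53, was 284.06 and 307.37 against 322.16 and 355.48 (-0.20, adjusted p = 0.38), and the death receptor FAS 106.97 and 110.18 against 110.02 and 116.17 (-0.06).

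**Figure D5:**
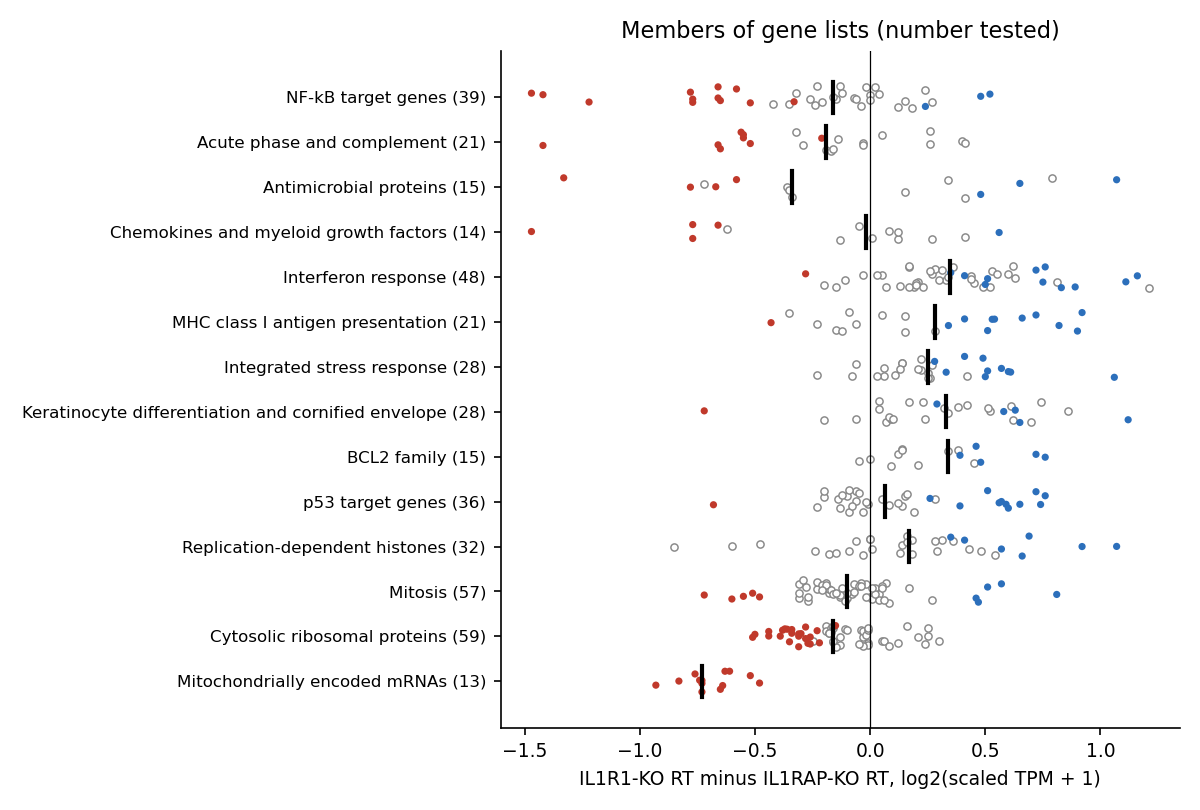
Each point is a gene of the list named on the axis, at its log2 difference between cells labelled IL1R1-KO RT and IL1RAP-KO RT cells, red where lower and blue where higher at an unadjusted p below 0.05 in limma, with a black bar at the median. Interferon-response, MHC class I and stress response genes lie mainly above 0 and mitochondrial mRNAs below, and the medians of the NF-κB target, acute phase, antimicrobial, chemokine, mitosis and ribosomal protein lists, below 0 here, lie above 0 with TPM as deposited (0.12, 0.10, 0.01, 0.26, 0.10 and 0.20). The median of all genes on that scale is 0.30, above each of these.

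RNA made in mitochondria was the strongest shift in the other direction and followed 1 library. All 13 mitochondrially encoded mRNAs were lower without overlap in cells labelled IL1R1-KO RT and reached an unadjusted p below 0.05 in limma, beside 20.5% and 7.24% of all genes, and none was called. The median was -0.73 (-0.36 with TPM as deposited, or 0.66 below all genes), -0.34 without IL1RAP-KO RT replicate 2 and -1.06 without replicate 1. MT-ATP8, a subunit of the ATP synthase, was 52563.83 and 55292.82 scaled TPM against 72885.84 and 144614.74, and 64127.09 and 58531.42 in WT RT (-0.93, standard error 0.27, adjusted p = 0.21). MT-CO1, of cytochrome oxidase, was 37487.3 and 39871.71 against 45053.14 and 64762.99 (-0.48, adjusted p = 0.26). Both IL1RAP-KO RT libraries were above the other line, replicate 2 by far more. The 42 nuclear genes of the respiratory chain had a median of 0.02. More mitochondrial RNA per cell and less nuclear RNA per cell cannot be told apart in such libraries.

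Cytosolic ribosomal protein genes had a median of -0.16 (0.20 with TPM as deposited, or 0.10 below all genes). It was -0.07 without IL1RAP-KO RT replicate 1 and -0.26 without replicate 2. None was called, and 23 of 59 were lower and 0 higher at an unadjusted p below 0.05 in limma, beside 7.24% and 8.02% of all genes. RPS27 was 5730.5 and 5728.38 against 7317.8 and 8274.01 (-0.44, standard error 0.10, adjusted p = 0.14), and RPS18 2307.95 and 2570.55 against 2892.02 and 2207.46 (-0.05). Genes of mitosis and of DNA replication were close between the lines, with medians of -0.10 over 57 and -0.04 over 50 genes (0.10 and 0.24 with TPM as deposited, or 0.20 and 0.06 below all genes) and none called. With any 1 of the 4 libraries left out these medians ran from -0.18 to -0.06 and from -0.10 to 0.05. PCNA, the sliding clamp of replication, was 76.62 and 83.6 against 80.83 and 80.5 (-0.01, 95% interval -0.17 to 0.15). Of 32 replication-dependent histone genes (59 listed), many of them near-identical, none was called. At an unadjusted p below 0.05 in limma 7 were higher and 0 lower, beside 8.02% and 7.24% of all genes. Their median was 0.17, or 0.08 without IL1RAP-KO RT replicate 1 and 0.27 without replicate 2. H2AC6 was 219.87 and 233.76 against 176.71 and 187.85 (0.31, adjusted p = 0.40). The other 28 lists had medians between -0.24 and 0.19 and held 1 called gene, CXCL1.

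Markers of other cell types were compared as well, and their part in the results was not tested. All 7 basal mammary markers were above 1 TPM in the 4 libraries, summing to 2583.36 to 3112.5 scaled TPM in cells labelled IL1R1-KO RT and 2533.12 to 2705.43 in IL1RAP-KO RT. Leukocyte markers summed to 2.62 to 3.28 and 1.97 to 5.82, with CD3E and TYROBP at 0 in all 4 libraries. Fibroblast markers summed to 42.56 to 47 and 52.1 to 57.85, with COL1A2 at 0, luminal markers to 433.35 to 456.97 and 422.21 to 428.6, and endothelial markers to 6.52 to 7.67 and 7.79 to 9.41. Which sums overlapped between the lines depended on the scaling: the basal and leukocyte sums did on this scale, and the fibroblast, leukocyte and endothelial sums did with TPM as deposited.

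Without RT the KO lines differed in 4 called genes (0.0261%), all higher in cells labelled IL1R1-KO. None was lower, while 289 genes were higher and 277 lower at an unadjusted p below 0.05 in limma. IL1RAP was the protein-coding gene among them and is given above. AC004975.1, a pseudogene inside UBE3C, was listed at 6.95 and 6.35 scaled TPM in untreated cells labelled IL1R1-KO and at 0 in the other 10 libraries. CXCL1 was already at 2.7 and 2.94 against 7.09 and 6.07 before RT, and 31.94 and 31.24 in untreated WT cells (-0.99, adjusted p = 0.12 from limma). SOD2 was 141.8 and 118.62 against 159.26 and 177.2 before RT (-0.37). GBP2, at 7.22 and 7.18 against 8.09 and 6.61, overlapped between the untreated lines, and HLA-B, at 43.79 and 43.23 against 40.52 and 40.05, did not overlap but lay close.

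Whether the difference between the lines changed with RT was tested as an interaction, in which 3 genes (0.0196%) were called lower and none higher, with 716 higher and 681 lower at an unadjusted p below 0.05 in limma. For CXCL1 the change was -0.48 (adjusted p = 0.53) and for SOD2 -0.85 (standard error 0.17, adjusted p = 0.31), so neither difference was shown to be particular to irradiated cells. For IL1RAP it was -0.36 (adjusted p = 0.71). The 3 called were transcripts present in 1 group of libraries. AC245100.3 (-2.08, adjusted p = 0.31), of the genes with the smallest p, was not called.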

How the data were processed

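RNA without ribosomal RNA was sequenced from stranded libraries of 12 samples in 6 groups of 2. Per the submitters' processing notes and the study's methods, reads were trimmed (cutadapt 1.15), mapped to GRCh38 (STAR 2.5.3a) and assigned to genes (HTSeq), and the authors deposited TPM per gene. The annotation release, gene lengths and strand setting were not settled by the sources used here. TPM keep no depth, so no depth or counting interval can be given.

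Genes with at least 1 TPM in at least 2 libraries were kept (15303 of 60675). TPM were rescaled by trimmed means of M values (30% of M and 5% of A values trimmed), and log2(scaled TPM + 1) was fitted with limma 3.58.1 in R 4.3.3 (jsonlite 2.0.0 read the labels), with 6 group means, a trend in the variance, and 6 residual with 3.73 prior degrees of freedom. An exact permutation test of 2 against 2 libraries cannot go below p = 0.33. The fit was tested on simulated data in which all groups shared the spread of a gene and no library deviated as a whole. That test does not cover libraries as unlike as the IL1RAP-KO RT replicates. Positions are from GENCODE v44 (15253 of the genes tested). Deviations of same-numbered libraries correlated at -0.06 to 0.09 over 15 pairs of groups (-0.03 here), so replicates were not paired.

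The members and the 51 gene lists were chosen with earlier results of these data known. Named genes were IL1R1 and IL1RAP, called genes (up to 15 per direction) whose mean reached 2 on the log2 scale without overlap, up to 4 called and 2 other highest members of each list, the 5 highest and lowest called in the change with RT, and the 5 smallest p where fewer than 5 were called. The called genes of lower mean, and others so marked, were chosen after their values were seen. Some list members are not reported here by name.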

Additional observations from a re-analysis of the deposited data

Results flagged for a closer look

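The change of the KO difference with RT was itself tested as an interaction, and 3 genes passed it. Each was listed at or near 0 in nearly all libraries except those of 1 group, so the values are fitted changes on the log2(scaled TPM + 1) scale and give no fold. AP001094.1 changed by -3.95 (standard error 0.26, adjusted p = 0.00061, limma), with TPM above 0 in the 2 IL1RAP-KO RT libraries alone. AC004975.1 had a change of -2.93 (standard error 0.27, adjusted p = 0.0063), with TPM above 0 in the 2 untreated libraries labelled IL1R1-KO alone. AC107918.4 had a change of -2.33 (standard error 0.28, adjusted p = 0.046), at 4.99 and 4.61 scaled TPM in those untreated libraries and at 0.21 or less in the other 10. AP001094.1 passed under 16 of 17 alternatives. AC004975.1 did not pass without IL1R1-KO replicate 1 (adjusted p = 0.051) or IL1RAP-KO replicate 2 (adjusted p = 0.067). AC107918.4 passed under 5 of 17, and of the leave-one-out fits it passed without IL1R1-KO replicate 2 (adjusted p = 0.044) and without IL1RAP-KO RT replicate 1 (adjusted p = 0.015).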

How the results depend on the processing

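Depth is unknown, so small differences in low genes cannot be judged against counting error, and 2 libraries a group leave the spread to be shared over all groups. None of the 11 called genes changed sign under any alternative, but medians of gene lists did: with TPM as deposited those of the NF-κB target (0.12), acute phase (0.10), antimicrobial (0.01), chemokine (0.26), ribosomal protein (0.20), metallothionein (0.08), mitosis (0.10) and DNA replication (0.24) lists turned above 0, and without IL1RAP-KO RT replicate 1 the antimicrobial median was 0.24. The median of all genes with TPM as deposited was 0.30, and all of these lists lay below it on that scale. Between the irradiated lines (2 higher, 9 lower), TPM as deposited gave 6 higher and 3 lower, a pseudocount of 0.5 gave 1 and 4, and scaling to nuclear protein-coding genes gave 4 higher. No filter on low values gave 5 higher, and 14 genes for the change with RT (3 reported). A pseudocount of 0.1 gave 2 untreated calls (4 reported). A minimum of 1 TPM in all compared libraries, on 12356 genes, gave 0 higher (1076 at an unadjusted p below 0.05 in limma) and 2 lower, 0 untreated (194 higher and 205 lower) and 0 for the change (606 and 561). With the compared libraries alone in limma 0 were higher and 0 lower (618 and 480), 0 untreated (431 and 379) and 1 for the change, and with those of the same treatment alone 1 was lower and 1 untreated. Library weights, an alternative chosen after seeing the data, gave 1 higher and 2 lower. With replicate number as a block, although the numbers did not pair the libraries, 4 were lower.

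Leaving out 1 library gave 1 to 213 higher and 3 to 100 lower genes. The 213 and 100 came without IL1RAP-KO RT replicate 1. The count lower was 4 without IL1R1-KO RT replicate 1, 3 without IL1R1-KO RT replicate 2 (1 higher) and 4 without IL1RAP-KO RT replicate 2. Untreated calls ran from 1 (without IL1RAP-KO replicate 2) to 33 (without IL1R1-KO replicate 2), and those for the change from 1 (without IL1RAP-KO replicate 2) to 258 (without IL1RAP-KO RT replicate 1), with 28 without IL1R1-KO replicate 2 and 5 without IL1RAP-KO replicate 1. Median-of-ratios factors and nuclear protein-coding scaling each kept all 11 called genes, and no filter on low values kept 10. TPM as deposited, a pseudocount of 0.5 and the block each kept 5. Library weights and a pseudocount of 0.1 each kept 3, and a minimum of 1 TPM in all compared libraries kept 2. Fitting the same treatment alone kept 1, and fitting the compared libraries alone kept 0. The genes called higher with the same treatment alone, AC007383.3 and SNHG9, were not among the 11. The causes were not tested.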
